A study of Arabidopsis thaliana with 42 samples.

Results

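The 6 touch and calmodulin-like genes of Arabidopsis thaliana described here were followed across nitrate treatment, mutants of nitrate sensing and transient expression of the NLP (NIN-like protein) transcription factors. They were taken by locus: CML37 (AT5G42380), CML38 (AT1G76650), CML39 (AT1G76640), TCH2 (AT5G37770, also CML24), TCH3 (AT2G41100, also CML12) and TCH4 (AT5G57560, also XTH22). All 6 were present among the 37336 loci of the count files. All 6 passed the filter on low counts in seedlings and in protoplasts.

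Calcium ions carry signals inside plant cells, and calmodulin and the calmodulin-like (CML) proteins read them by binding calcium through EF-hand motifs. The TCH genes are named for touch, since their messenger RNAs rise within minutes when a plant is bent, rained on or sprayed. TCH2 and TCH3 encode calcium-binding proteins of the CML family, and TCH4 encodes a xyloglucan endotransglucosylase/hydrolase (XTH), an enzyme that cuts and rejoins xyloglucan chains in the cell wall. CML37, CML38 and CML39 are closely related CML genes known as rapid stress-responsive genes: CML37 is linked to jasmonate defence, CML38 to low oxygen and CML39 to early seedling growth. Nitrate itself triggers a calcium signal in Arabidopsis, which reaches NLP7 through calcium-dependent protein kinases.

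The seedlings were grown over 7 days in liquid medium whose nitrogen came from ammonium succinate at 2.5 mM, washed, and then kept over 20 min in 10 mM KNO3 or 10 mM KCl. The labels mark these treatments N and K, read here from the protocol as KNO3 and KCl. The genotypes treated were the septuple mutant nlp2,4,5,6,7,8,9, the mutant chl1-5 of the nitrate transporter and sensor NRT1.1, and wild type (Col-0), with 3 libraries of whole seedlings in each of the 6 groups. Mesophyll protoplasts, leaf cells freed of their wall, came from wild type plants of 3 to 4 weeks grown in soil. One of NLP1 to NLP9 was expressed transiently in 2 libraries each, against 2 control libraries for NLP1,2,3,5,8,9, 2 for NLP4,6 and 2 for NLP7. The labels and files read here do not say what the control protoplasts received, or which promoter drove each NLP. Every seedling group shares the ammonium-grown state and the washing, and every protoplast group the removal of the wall.

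Total gene counts were 5.638 to 27.731 M in protoplast libraries and 18.317 to 59.711 M in seedling libraries. A count of 0 allows a level of up to 3 counts, or 0.108 to 0.532 CPM (counts scaled to 1 M counts in the library) in protoplasts and 0.05 to 0.164 CPM in seedlings, for counting error only. NLP8 had 0 counts in all 6 septuple libraries, against 2.07 to 9.7 CPM in wild type. NLP7 still gave 36.52 to 89.64 CPM in septuple libraries, against 54.54 to 116.63 CPM in wild type. NLP4 gave 20.16 to 35.76 CPM, against 19.22 to 32.19 CPM, and NLP6 gave 22.59 to 32.71 CPM, against 21.69 to 35.58 CPM, so a whole-gene count is no check of these alleles. NRT1.1 lay between 49.72 and 90.87 CPM in chl1-5, against 488.7 to 916.52 CPM in wild type. In 4 of the 18 protoplast libraries with an NLP, the highest NLP transcript was not the labelled one. NLP1 led at 13201.74 CPM in the library labelled NLP4 replicate 1, and NLP4 led at 43118.41 CPM in that labelled NLP6 replicate 1. NLP8 led at 41880.64 CPM in the library labelled NLP5 replicate 2, and NLP5 led at 58390.77 CPM in that labelled NLP8 replicate 2. They were kept as labelled, and the calls of the 6 genes and the list counts are given again without them. NLP4, NLP5, NLP6 and NLP8 then have 1 library each, the spread comes from the other groups, and the lone library is assumed to vary like them. The control libraries for NLP1,2,3,5,8,9 differed by about the sampling noise (chi-square 1.01 per gene without the NLP genes, p = 0.119) and were counted as 1 sample. In protoplasts the epidermis markers summed to 0.89 to 5.06 CPM, the root markers to 6.83 to 65.29 CPM and the mesophyll and photosynthesis markers to 499.99 to 2304.13 CPM. The photosynthesis markers came to 26224.39 to 68452.75 CPM in seedlings, far above the protoplasts.

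The positions are those of the build TAIR10.1. CML38 and CML39 are neighbours on the minus strand of chromosome 1, at chr1:28766750-28768138 and chr1:28765254-28765866, with 883 bases between them. CML37 lies on the minus strand at chr5:16942447-16943820, TCH2 on the minus strand at chr5:14997514-14999619, and TCH4 on the minus strand at chr5:23307006-23308680. TCH3 lies on the plus strand at chr2:17137037-17139700 and starts 37 bases after the end of AT2G41090, an EF-hand gene. The annotation places AT5G37760 over TCH2, and AT2G09220 and AT2G41105 over TCH3, on the opposite strand. The labels and files read here do not say whether counting used the strand, so reads of such partners cannot be told apart. Those partners had low counts: AT5G37760 did not exceed 0.264 CPM in any library of the fits, AT2G09220 had 0 counts, and AT2G41105 did not exceed 2.19 CPM. How reads lying over both genes were counted is not stated, so these counts do not settle the partners' levels.

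Reads of near-identical copies could also be split, so coding sequences were aligned in pairs. CML38 and CML39 shared 83.4% of 471 aligned coding bases, with a longest common run of 34 bases. TCH2 shared 81.2% with its closest relative CML23, TCH3 79.4% with calmodulin CAM2 and 80.2% with its neighbour AT2G41090, and TCH4 73% with XTH25. CML37 was less close to the members than these pairs were, at 67.4 to 68.9%.

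The 250 bases before the annotated start were read for the members (RefSeq annotation, TAIR10.1) and searched on both strands for CGCGTT, the rapid stress response element, which calmodulin-binding CAMTA factors are known to bind. The windows before TCH2 and CML37 are shown because TCH2 was the only one of the 5 windows read to hold the element, and CML37 was the only member called with nitrate. Both windows are on the minus strand, chr5:14999620-14999869 before TCH2 and chr5:16943821-16944070 before CML37. Capitals mark the CGCGTT matches, which overlap their own copies on the other strand as AACGCGTT.
TCH2: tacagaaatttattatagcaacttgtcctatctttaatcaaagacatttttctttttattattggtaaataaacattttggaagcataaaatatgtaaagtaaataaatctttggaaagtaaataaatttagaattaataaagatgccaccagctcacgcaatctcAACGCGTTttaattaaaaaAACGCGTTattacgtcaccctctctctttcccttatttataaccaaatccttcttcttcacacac
CML37: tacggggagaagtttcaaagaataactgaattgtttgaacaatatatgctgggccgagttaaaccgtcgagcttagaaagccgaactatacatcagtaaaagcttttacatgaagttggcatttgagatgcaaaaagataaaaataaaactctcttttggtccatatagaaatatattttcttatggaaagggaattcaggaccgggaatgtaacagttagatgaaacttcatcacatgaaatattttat
TCH2 had 4 matches, 2 per strand, between 84 and 58 bases before the start. CGCGTT occurs in 2.59% of the 27443 windows of this length read in the genome, and no window of CML37, CML38, CML39 or TCH4 held it. None of these windows held the G-box CACGTG, which 6.49% of all windows hold. The W-box core TTGAC, the site of WRKY factors, was found once before CML38 and once before TCH4, and it is common, at 44.9% of windows. The window before TCH3 lies over AT2G41090 and is not shown. A match describes these letters only.

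In seedlings, on the scale of CPM per kilobase of exon, which allows levels of different genes to be compared, TCH4 and TCH3 were the highest members. Their medians over 18 libraries were 109 for TCH4 and 90.3 for TCH3. The ranges of TCH4 (70.1 to 173) and TCH3 (64.4 to 141) overlapped. TCH2 followed at 30.1 (18.5 to 49.8), then CML38 at 6.63 (3.88 to 53.9), CML37 at 5.22 (0.98 to 12.6) and CML39 at 2.04 (0 to 13.4). The ranges of these lowest 3 also overlapped, and the highest CML38 library reached past TCH2.

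In protoplasts the order differed, with CML38 highest at a median of 103 CPM per kilobase over 24 libraries (73.9 to 168). TCH3 had 54.4 (32.4 to 119), CML37 47.9 (26.9 to 108), TCH4 23.1 (13.1 to 41.8), TCH2 11.2 (7.07 to 20.5) and CML39 1.57 (0 to 4.66). Each of these genes overlapped in range with the next one in the order, except CML39, which lay below all others. Counted as CPM of the library total, CML37 lay at 37 to 149 CPM in protoplasts, against 1.35 to 17.3 CPM in seedlings. CML38 lay at 73.4 to 167 CPM in protoplasts, against 3.85 to 53.5 CPM in seedlings. TCH4 lay on the other side, at 20.8 to 66.4 CPM in protoplasts, against 111 to 274 CPM in seedlings. These 3 genes did not overlap between the sample types. Across 19420 loci, 25.3% lay above and 20.2% below without overlap, so 45.5% of loci were of this kind in either direction. Tissue, growth and preparation cannot be told apart in this comparison, and no test was made.

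**Figure D1:**
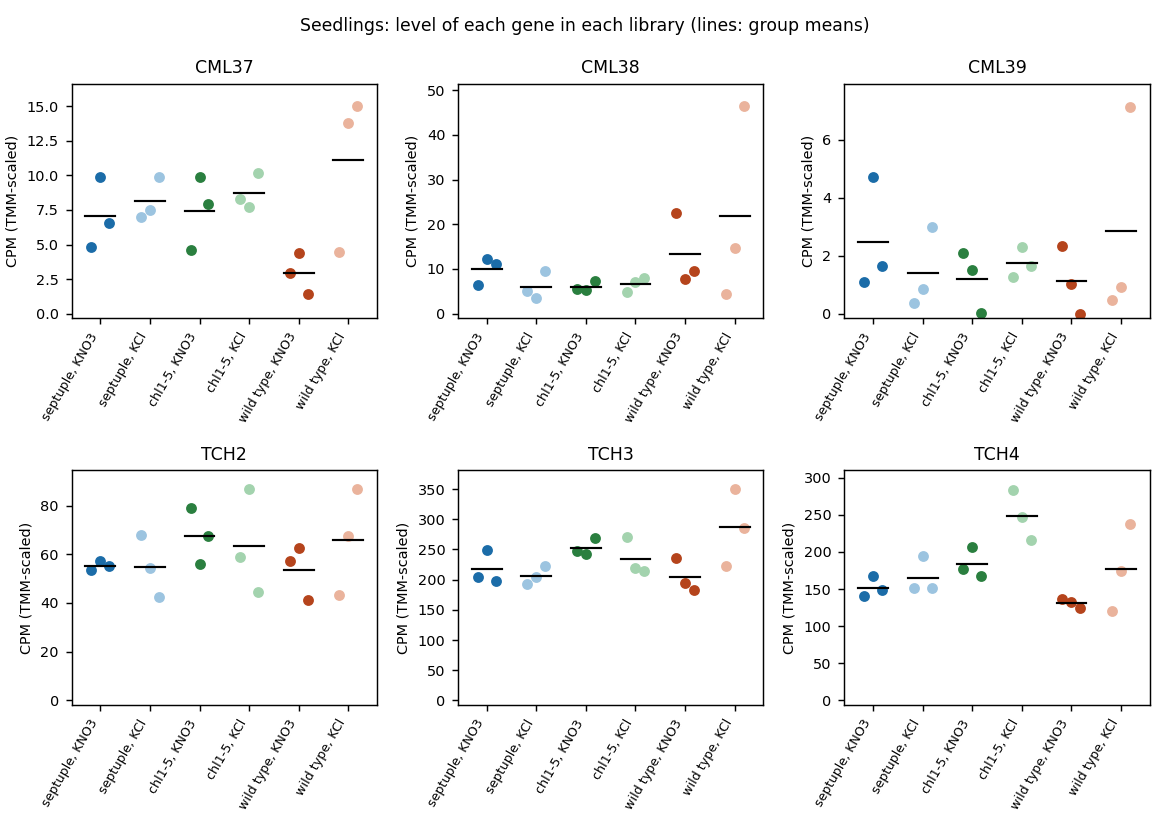
Level of each of the 6 genes in the 18 seedling libraries, in CPM scaled by TMM (y axis) by genotype and treatment (x axis), with 1 point per library and a line at the group mean. CML37 is lowest in wild type with KNO3 (1.4 to 4.39 CPM), and 1 wild type KCl library stands highest for CML38 (46.4 CPM) and CML39 (7.13 CPM).

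The first comparison asked which genes respond within 20 min of nitrate in wild type. CML37, the calcium sensor linked to jasmonate defence, fell with nitrate, and it was the only one of the 6 called in any comparison of seedling groups with the edgeR test. It had 2.97, 4.39 and 1.4 CPM in wild type with KNO3, against 4.49, 13.8 and 15 CPM in wild type with KCl. The groups did not overlap, but the lowest KCl library lay close to the highest KNO3 library. The means were 2.92 ± 1.5 CPM with KNO3 and 11.1 ± 5.75 CPM with KCl (SD, n = 3 each), and the log2 fold change was -1.92 ± 0.45 (SE, edgeR adjusted p = 0.0383). In this comparison 0.725% of all 21229 genes were called, 0.108% as lower. The call was lost without wild type KCl replicate 2 or 3 (adjusted p = 0.0934 and 0.164) and without wild type KNO3 replicate 1 or 3 (adjusted p = 0.0874 and 0.171). The call was also lost with only the groups compared in the fit and with a replicate block within genotype. The log2 fold change without 1 library stayed between -2.34 and -1.59. The photosynthesis markers moved in the same comparison: 2 of 5 were called higher, and they summed to 51900 to 77100 CPM with KNO3, against 27700 to 43000 CPM with KCl. Their part in the result was not tested.

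The other sensors were not called with nitrate in wild type. CML38, linked to low oxygen, had 22.6, 7.71 and 9.51 CPM with KNO3, against 4.39, 14.7 and 46.4 CPM with KCl. These groups overlapped widely, and 1 KCl library carried the higher mean. The log2 fold change was -0.72 ± 0.53 (edgeR adjusted p = 0.671), and 0.48 without wild type KCl replicate 3. CML39 was the lowest member, with 59, 31 and 0 counts with KNO3, against 34, 29 and 327 counts with KCl. The same KCl library gave its highest count, and the log2 fold change was -1.34 ± 1.18 (edgeR adjusted p = 0.747). TCH2 averaged 53.7 ± 11 CPM with KNO3 and 65.8 ± 21.8 CPM with KCl (SD, n = 3 each; log2 fold change -0.29 ± 0.25, edgeR adjusted p = 0.735).

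TCH3 had 236, 195 and 183 CPM with KNO3, against 223, 351 and 286 CPM with KCl. The groups overlapped by 1 library on each side, and the log2 fold change was -0.49 ± 0.18 (unadjusted p = 0.0141 and edgeR adjusted p = 0.276). TCH4, the wall enzyme, had 136, 133 and 125 CPM with KNO3, against 120, 174 and 238 CPM with KCl. The KNO3 libraries lay close together and the KCl libraries far apart, with a log2 fold change of -0.43 ± 0.20 (unadjusted p = 0.0432 and edgeR adjusted p = 0.41).

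In both mutants the nitrate response of CML37 was small and not called. The septuple mutant had 4.85, 9.87 and 6.52 CPM with KNO3, against 7, 7.53 and 9.89 CPM with KCl (log2 fold change -0.2 ± 0.43, edgeR adjusted p = 1). The chl1-5 mutant had 4.57, 9.85 and 7.91 CPM with KNO3, against 8.3, 7.72 and 10.2 CPM with KCl (log2 fold change -0.23 ± 0.44, edgeR adjusted p = 1). In both mutants the KNO3 and KCl libraries overlapped. The difference in nitrate response itself, septuple minus wild type, was 1.72 ± 0.62 for CML37, with a 95% interval of 0.45 to 3 (edgeR adjusted p = 0.27). For chl1-5 minus wild type it was 1.69 ± 0.62, with an interval of 0.41 to 2.97 (edgeR adjusted p = 0.543). Both differences use the same wild type libraries, so they are not independent of each other. Neither difference passed the threshold, so a different response of CML37 in the mutants was not established. The mutants differed from each other by 0.03 ± 0.61, with a wide interval of -1.23 to 1.3.

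With nitrate, edgeR called 0 of the 6 genes in the septuple mutant, and 0 had an unadjusted p under 0.05. It called 0 in chl1-5, where TCH4 alone had an unadjusted p under 0.05. DESeq2 called 0 in either mutant. Of all genes tested by edgeR, 0% were called in the septuple mutant and 0.122% in chl1-5, 0.00471% as lower there. TCH4 in chl1-5 had 177, 207 and 168 CPM with KNO3, against 284, 247 and 216 CPM with KCl. These groups did not overlap, and the log2 fold change was -0.44 ± 0.20 (edgeR adjusted p = 0.762), close to the -0.43 of wild type. For the differences between genotypes in nitrate response, edgeR called 0 of 6 in each. CML37 and TCH3 had an unadjusted p under 0.05 for either mutant against wild type, and no member did for septuple against chl1-5. DESeq2 called 0 in each, with 3 members lacking an adjusted p for septuple against wild type. The shares of all genes called were 0.278% for septuple against wild type, 0.00942% for chl1-5 against wild type and 0.033% for septuple against chl1-5.

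**Figure D2:**
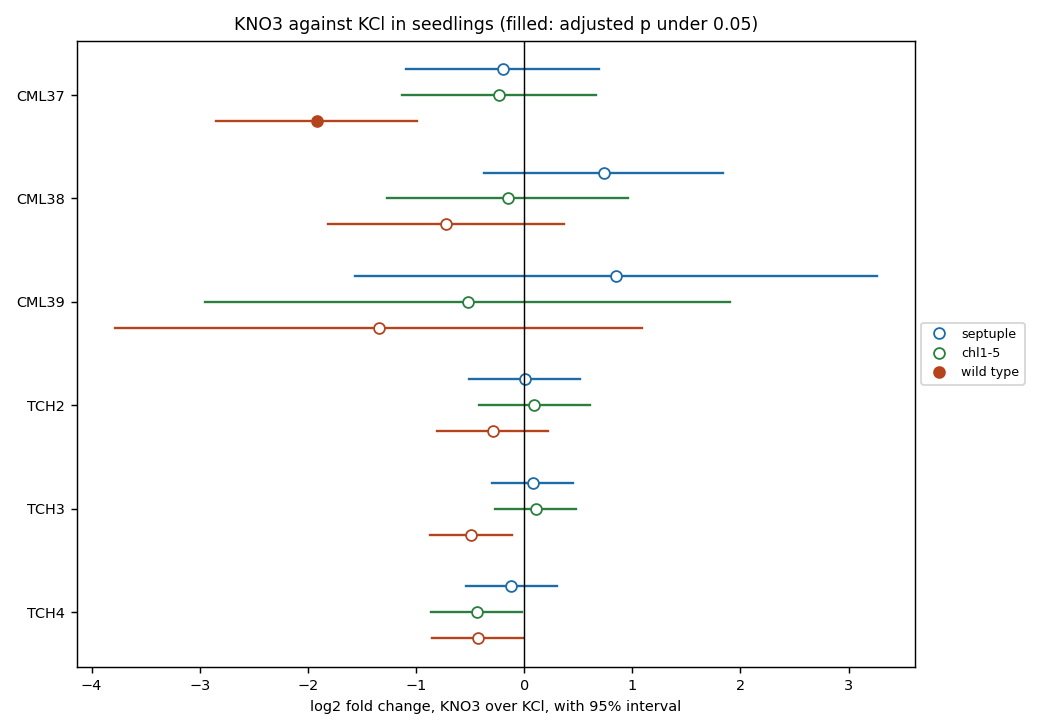
Log2 fold change of KNO3 over KCl (x axis) for each gene in the septuple mutant, chl1-5 and wild type, with 95% intervals from the edgeR fit. The filled point is the 1 call, CML37 in wild type at -1.92, and the intervals of CML39 are the widest.

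Mutants were also set against wild type within each treatment. Both mutants were set against the same wild type libraries, so their values are not independent of each other. CML38 was lower in KCl in both mutants by size, but edgeR called it in neither. It had 5.09, 3.45 and 9.45 CPM in septuple seedlings and 4.94, 7.1 and 8.02 CPM in chl1-5 seedlings, against 4.39, 14.7 and 46.4 CPM in wild type. The groups overlapped, since the lowest wild type library lay among the mutants' values, and the highest wild type library stood far above all others. The log2 fold changes were -1.88 ± 0.55 in septuple and -1.71 ± 0.55 in chl1-5 (edgeR adjusted p = 0.0768 and 0.0599). Without wild type KCl replicate 3 they were -0.68 and -0.51 (adjusted p = 0.88 and 0.638). Without wild type KCl replicate 1 they were -2.36 and -2.19, which edgeR called (adjusted p = 0.00414 and 0.0273), and without wild type KCl replicate 2 chl1-5 was called at -1.89 (adjusted p = 0.0395).

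With KNO3, CML37 stood above wild type in both mutants without overlap. The wild type KNO3 libraries are the same for both and also enter the CML37 call with nitrate. The share of all genes without overlap is not given here. The log2 fold change of CML37 was 1.27 ± 0.45 in septuple and 1.35 ± 0.45 in chl1-5 (edgeR adjusted p = 0.0674 and 0.24). It was called for septuple without wild type KNO3 replicate 2 (log2 fold change 1.7, adjusted p = 0.0491). DESeq2 called CML38 in KCl for each mutant and CML37 in KNO3 for septuple. It called 4.07% of all genes for septuple in KCl, 17.1% for septuple in KNO3 and 12.5% for chl1-5 in KCl. In this set edgeR called 0 of 6 members in each of the 4 comparisons, with 2 and 1 members at an unadjusted p under 0.05 for septuple in KCl and KNO3, and 2 and 3 for chl1-5. By edgeR the shares of all genes called were 2.25% for septuple in KCl and 10.8% for septuple in KNO3 (4.05% higher and 6.78% lower). They were 5.48% for chl1-5 in KCl (2.65% higher and 2.83% lower) and 0.0612% for chl1-5 in KNO3. The 5 photosynthesis markers were all called lower in septuple with KNO3 and all called higher in chl1-5 with KCl. They summed to 22000 to 26400 CPM in septuple and 51900 to 77100 CPM in wild type with KNO3, and to 61000 to 79600 CPM in chl1-5 and 27700 to 43000 CPM in wild type with KCl. Their part in these values was not tested.

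The neighbour of TCH3, AT2G41090, differed between genotypes where TCH3 was not called. AT2G41090 had 165, 161 and 161 CPM in septuple with KCl, against 50.2, 67.9 and 59.1 CPM in wild type (log2 fold change 1.46 ± 0.17, edgeR adjusted p = 9.08e-06). With KNO3 it had 167, 187 and 197 CPM in septuple, against 58.8, 60.1 and 48.2 CPM in wild type (log2 fold change 1.72 ± 0.17, edgeR adjusted p = 1.74e-07). The groups lay far apart in both treatments. TCH3 had 193, 204 and 222 CPM in septuple with KCl, against 223, 351 and 286 CPM in wild type, which did not overlap (log2 fold change -0.48 ± 0.18, edgeR adjusted p = 0.238). Its value with KNO3 was 0.08 ± 0.18 (edgeR adjusted p = 0.848).

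**Figure D3:**
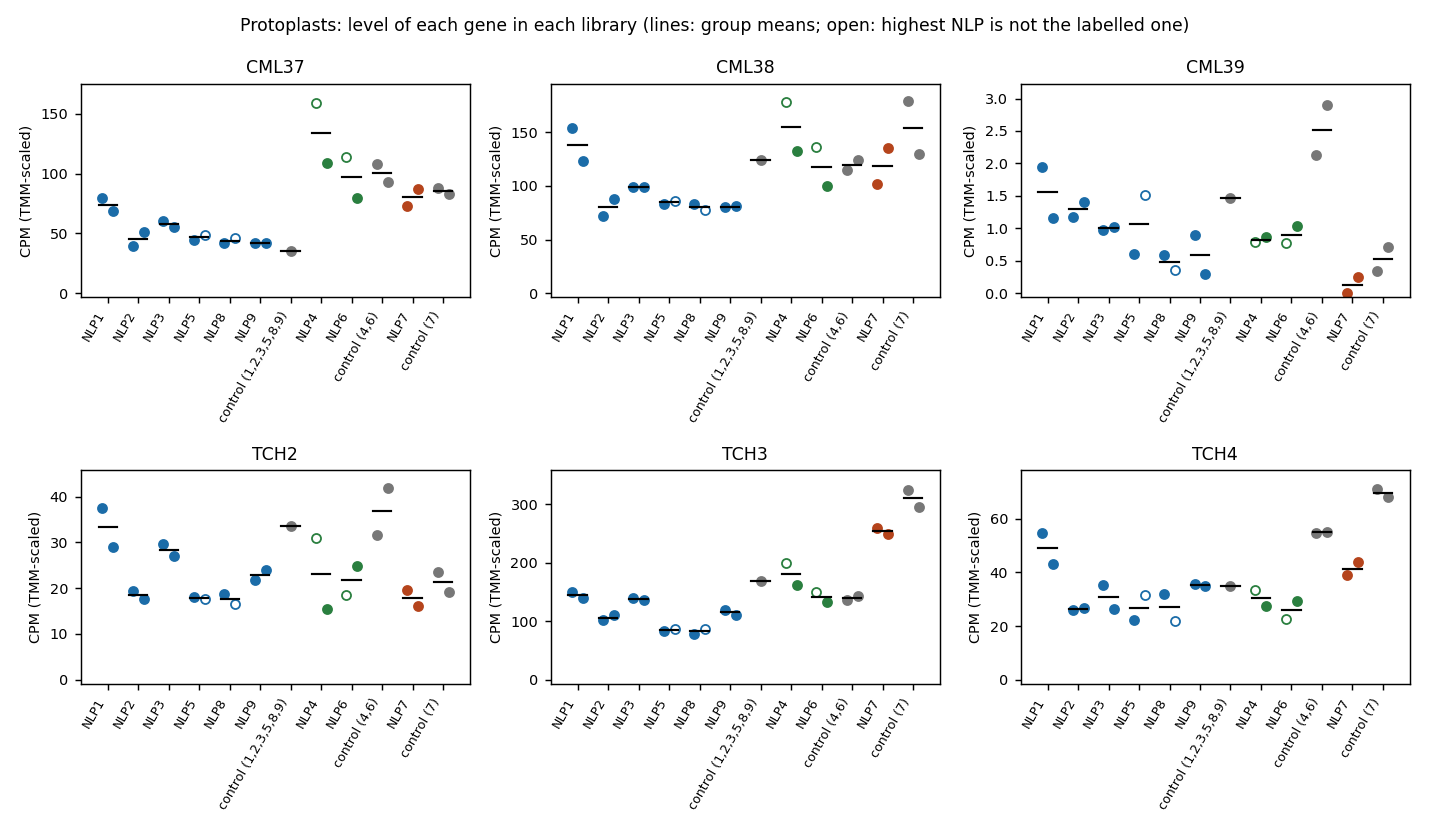
Level of each of the 6 genes in protoplast libraries, in CPM scaled by TMM (y axis) by group (x axis), each NLP left of the control it was set against; lines are group means and open points are the 4 libraries whose highest NLP was not the labelled one. TCH3 lies lowest with NLP5 and NLP8 (78 to 87.2 CPM), and TCH4 lies below its control with NLP4, NLP6 and NLP7.

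In protoplasts each NLP was set against its own control, to ask which genes an NLP changes when it is expressed at a high level. Of the 6 genes, edgeR called CML37 as higher with NLP1, TCH3 as lower with NLP2, NLP5, NLP8 and NLP9, TCH4 as lower with NLP4, NLP6 and NLP7, and TCH2 as lower with NLP8. These groups are as labelled, and those of NLP4, NLP5, NLP6 and NLP8 each held 1 library with another NLP highest. NLP1, NLP2, NLP3, NLP5, NLP8 and NLP9 share 1 control sample, and NLP4 and NLP6 share theirs, so these calls are not independent of each other. In bulk samples fewer cells of a type and less RNA per cell cannot be told apart. The control levels differed between sets, with CML37 at 35 CPM in the control for NLP1,2,3,5,8,9, 92.6 to 108 CPM in those for NLP4,6 and 82.9 to 88.2 CPM in those for NLP7. TCH3 was at 168, 137 to 143 and 296 to 325 CPM in the same controls, so levels are compared only within a set.

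CML37 had 79.8 and 68.4 CPM with NLP1, against 35 CPM in the control. The log2 fold change was 1.08 ± 0.24 (edgeR adjusted p = 0.0347), in a comparison that called 1.58% of 19311 genes and 0.974% as higher. The call was lost without NLP1 replicate 1 or 2 (adjusted p = 0.179 and 0.0857), with log2 fold changes of 0.95 and 1.17. The photosynthesis markers summed to 2090 to 2130 CPM with NLP1, against 1580 CPM in the control, with 1 of 5 called higher. The 7 vasculature markers were all higher, with 0 called (median log2 fold change 1.18, summed to 8.78 to 15.1 CPM against 5.4 CPM), and the 3 epidermis markers tested had a median of -1.03. The part of these markers in the result was not tested. With NLP3, CML37 had 60.1 and 55 CPM (log2 fold change 0.72 ± 0.23, edgeR adjusted p = 0.113). Both NLP3 libraries lay above the control and below the NLP1 libraries. With NLP3 edgeR called 0 of the 6 genes, against 2.79% of all genes, 1.61% as lower. By unadjusted p, CML37 and TCH3 were under 0.05, and the count by DESeq2 was 0. The remaining NLPs gave log2 fold changes of CML37 between -0.09 and 0.42, none of them called. Against the same control sample CML37 was at 0.36 with NLP2, 0.41 with NLP5, 0.32 with NLP8 and 0.25 with NLP9, all without overlap. A level above this lone sample was therefore not particular to NLP1. Against other controls it was at 0.42 with NLP4, -0.05 with NLP6 and -0.09 with NLP7.

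TCH3, the long calmodulin-like protein, had the lowest adjusted p-values of the members. It had 102 and 110 CPM with NLP2 and 120 and 111 CPM with NLP9, against 168 CPM in the control. The libraries labelled NLP5 had 82.9 and 87 CPM, and those labelled NLP8 had 78 and 87.2 CPM. All 8 libraries lay below the control, as did those of NLP1 and NLP3, which were set against the same sample. The log2 fold change was -0.66 ± 0.13 with NLP2, -0.98 ± 0.13 with NLP5, -1.02 ± 0.12 with NLP8 and -0.54 ± 0.13 with NLP9 (edgeR adjusted p = 0.0034, 0.000282, 0.000212 and 0.00776). The comparisons called 7.71%, 7.73%, 8.05% and 11.5% of all genes as lower, and those of NLP2 and NLP5 called 6.61% and 2.87% as higher. Leaving out 1 library of NLP2, NLP5 or NLP8 did not end its call, and for NLP9 leaving out replicate 2 did (log2 fold change -0.48, adjusted p = 0.0554). The control is 1 sample, so its own variation was not tested. The 4 libraries that went against their labels included 1 of NLP5 and 1 of NLP8. Without the 4, the log2 fold changes of TCH3 were -0.69, -1.03, -1.11 and -0.55, all called, with 1 library each for NLP5 and NLP8.

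With the remaining NLPs TCH3 was not called. Against the same control of 168 CPM it averaged 145 CPM with NLP1 and 138 CPM with NLP3, without overlap. The log2 fold changes were -0.21 ± 0.13 and -0.28 ± 0.13 (edgeR adjusted p = 0.42 and 0.252). The share of all genes without overlap against that lone sample is not given here, so lying below it is not read as particular to TCH3. TCH3 had 259 and 249 CPM with NLP7, against 325 and 296 CPM in its control, which did not overlap (log2 fold change -0.29 ± 0.1, edgeR adjusted p = 0.0952). The libraries labelled NLP4 had 200 and 162 CPM, against 137 and 143 CPM in the control, which put TCH3 above the control there (log2 fold change 0.37 ± 0.11, edgeR adjusted p = 0.067). The higher of them was the library labelled NLP4 replicate 1, in which NLP1 was the highest NLP.

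TCH4, the wall enzyme, was lower in the sets of NLP4, NLP6 and NLP7. It had 39.1 and 43.7 CPM with NLP7, against 71.1 and 68.2 CPM in the control (log2 fold change -0.75 ± 0.2, edgeR adjusted p = 0.0246). The libraries labelled NLP4 had 33.6 and 27.6 CPM and those labelled NLP6 had 22.7 and 29.5 CPM, against 54.7 and 55.2 CPM in their control. No library of these NLPs reached its control. The log2 fold changes were -0.85 ± 0.2 for NLP4 and -1.06 ± 0.21 for NLP6 (edgeR adjusted p = 0.0355 and 0.014). Of the 6 root markers only SCR passed the filter, and it was called higher with NLP7 and NLP6. SCR had 60.7 to 69.1 CPM with NLP7, against 7.35 to 7.79 CPM in the control. The libraries labelled NLP6 had 9.9 to 63.1 CPM of SCR, against 8.39 to 9.51 CPM in their control. In the library labelled NLP6 replicate 1 the highest NLP was NLP4, so this range is not of NLP6 alone. With NLP7 the photosynthesis markers summed to 733 to 755 CPM, against 535 to 600 CPM. The part of these markers in the TCH4 value was not tested. Of all genes, 3.46% were called with NLP4 (1.71% lower), 4.05% with NLP6 (2.02% higher and 2.04% lower) and 9.63% with NLP7 (6.45% higher and 3.17% lower). Without the 4 libraries the values were -1.01 for NLP4, -0.9 for NLP6 and -0.72 for NLP7, all called, with 1 library each for NLP4 and NLP6. With the 4 kept, the NLP7 call was lost without NLP7 replicate 1 or 2 or control replicate 1 or 2 (adjusted p = 0.18, 0.0761, 0.117 and 0.0822). The NLP4 call was lost without NLP4 replicate 2 or control replicate 1 or 2 (adjusted p = 0.219, 0.202 and 0.175), and the NLP6 call without NLP6 replicate 1 or control replicate 1 or 2 (adjusted p = 0.132, 0.11 and 0.0834).

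TCH4 was not called in the other set. It had 54.7 and 43.3 CPM with NLP1, 25.9 and 26.6 CPM with NLP2 and 35.6 and 35.1 CPM with NLP9, against 35.1 CPM in the control. The libraries labelled NLP5 replicate 1 and NLP8 replicate 2, both with NLP5 as the highest NLP, had 22.1 and 21.9 CPM. Those labelled NLP5 replicate 2 and NLP8 replicate 1, both with NLP8 as the highest, had 31.6 and 32.1 CPM. As labelled, the log2 fold change was -0.39 for both NLP5 and NLP8 (edgeR adjusted p = 0.326 and 0.321). Without the 4 libraries it was -0.69 ± 0.18 for NLP5, which was called (adjusted p = 0.00765), and -0.13 ± 0.17 for NLP8, which was not (adjusted p = 0.629). These values rest on 1 library per NLP, which is assumed to vary like the other groups.

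TCH2, the sensor with the stress element before its start, had 18.7 and 16.6 CPM in the libraries labelled NLP8, against 33.5 CPM in the control (log2 fold change -0.93 ± 0.28, edgeR adjusted p = 0.047). This call sat at the threshold. It was lost without NLP8 replicate 1 or 2 (adjusted p = 0.111 and 0.157) and without either control library (adjusted p = 0.0601 and 0.0554). TCH2 had 19.4 and 17.7 CPM with NLP2 and 18 and 17.6 CPM in the libraries labelled NLP5 (log2 fold changes -0.85 ± 0.29 and -0.91 ± 0.29, edgeR adjusted p = 0.0623 and 0.0523). All of these libraries lay below the control, as did those of NLP3 and NLP9. The groups labelled NLP5 and NLP8 each held 1 library with NLP5 highest and 1 with NLP8 highest. As labelled, the TCH2 values therefore do not separate NLP5 from NLP8. The libraries labelled NLP4 stood apart from each other, at 31 CPM in replicate 1, with NLP1 highest, and 15.4 CPM in replicate 2, against 31.7 and 41.8 CPM in the control. Without NLP4 replicate 1 TCH2 was called with NLP4 (log2 fold change -1.25, adjusted p = 0.00239).

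CML38 was called with no NLP in the edgeR fit of all libraries. With no filter on low counts it was called with NLP2, NLP5, NLP7, NLP8 and NLP9, and with the control libraries kept apart with NLP2, NLP5, NLP8 and NLP9. Keeping them apart counts libraries that differed by about the sampling noise as separate samples. The shares of all genes called under these settings are not given here, so these calls are not read as particular to CML38. CML38 had 72.4 and 87.5 CPM with NLP2, 83.3 and 77.5 CPM in the libraries labelled NLP8 and 80.5 and 81.1 CPM with NLP9, against 124 CPM in the control. The log2 fold changes were -0.63, -0.63 and -0.62 (edgeR adjusted p = 0.0694, 0.0821 and 0.0629). CML39 was too low to compare, with at most 29 counts in any protoplast sample. It had 0 and 3 counts with NLP7, against 4 and 18 counts in the control (log2 fold change -2.15 ± 0.89, edgeR adjusted p = 0.15).

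Without the 4 libraries the common coefficient of variation of the protoplast fit was 0.088, against 0.159 with them, and more of all genes were called, for example 31% against 14.3% with NLP2. Among the members it added calls in 8 comparisons, all but that of NLP6. NLP8 had 3 in place of 2. CML38 was then called lower with NLP2, NLP5, NLP8 and NLP9 (log2 fold change -0.66, -0.6, -0.58 and -0.63), TCH2 with NLP2, NLP4, NLP5, NLP8 and NLP9 (-0.88, -1.26, -0.91, -0.84 and -0.57), and TCH3 with NLP3 and NLP7 (-0.29 and -0.26). TCH4 was called lower with NLP2 (-0.45) and higher with NLP1 (0.45), and CML37 was called higher with NLP3 (0.71). Without the 4, 16.2% of all genes were called with NLP3, 15.1% with NLP1, 18.2% with NLP5, 24.2% with NLP4, 24.8% with NLP8, 33.1% with NLP9 and 23.6% with NLP7, and 8.29% with NLP6.

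**Figure D4:**
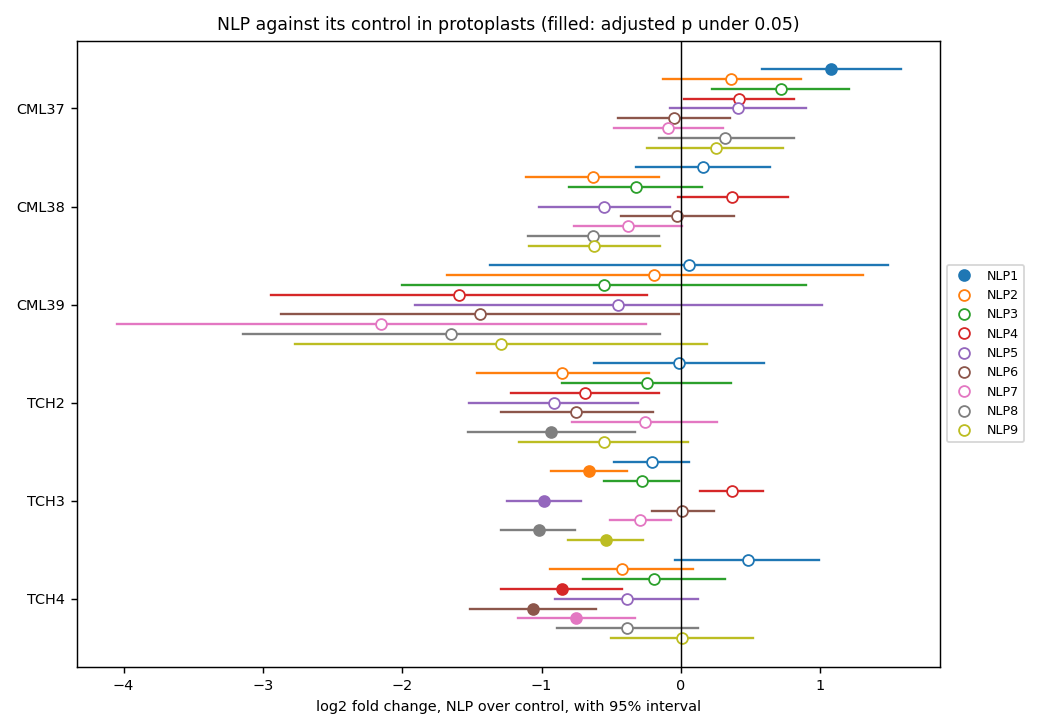
Log2 fold change of each NLP over its control (x axis) for each gene in protoplasts, with 95% intervals from the edgeR fit of all libraries as labelled. Filled points are calls: CML37 with NLP1 above 0, and TCH2, TCH3 and TCH4 below 0; CML39 has the widest intervals.

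The authors' deposited tables of NLP comparisons were set beside these values. The files do not state which library entered which table or which group stands on top. For CML37 with nitrate in wild type the authors' deposited table gives -1.88 (adjusted p = 0.00396), close to the value here. For TCH4 the authors' deposited tables give -0.67 with NLP5, -0.13 with NLP8, -1.1 with NLP4 and -0.8 with NLP6. The fit here of the libraries as labelled gives TCH4 -0.39, -0.39, -0.85 and -1.06. For each of these NLPs the TCH4 log2 fold change given above without the 4 libraries lies nearer to the authors' value. The authors' CML38 is at -0.62 to -0.33 with NLP2, NLP3, NLP5, NLP8 and NLP9 (authors' adjusted p = 8e-09 to 0.00612). Their TCH2 is at -1.12 to -0.54 with NLP2, NLP4, NLP5, NLP8 and NLP9 (authors' adjusted p = 5.46e-09 to 0.00172). With the other NLPs neither gene is under 0.05 there. For CML39 the authors' deposited table gives -1.65 with NLP5 and -0.47 with NLP8. The fit here of the libraries as labelled gives CML39 the values -0.45 with NLP5 and -1.65 with NLP8.

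Other genes of the same families and of the touch and wound response were followed by lists. Of the 26 genes tested on the touch, wound and rapid stress list, which holds JAZ repressors, jasmonate synthesis enzymes, stress transcription factors and others, 10 fell with NLP2, 13 with NLP5, 12 with NLP8 and 10 with NLP9, beside 7.71%, 7.73%, 8.05% and 11.5% of all genes. With 1 library left out these counts went down to 4, 7, 4 and 5. For such fits the shares of all genes called are not given here. In this and the other lists, counts with 1 library left out are therefore not read against the shares of the full fit. The groups labelled NLP5 and NLP8 each held 1 library with NLP5 highest and 1 with NLP8 highest. They share a control, so as labelled their counts do not separate NLP5 from NLP8. This holds for the other lists too. Only NLP9 had a call in the other direction, 1 higher. NLP4 and NLP6 had 2 lower each, and NLP1, NLP3 and NLP7 had 0 by edgeR. The median log2 fold change of the list was -0.38 with NLP2, -0.68 with NLP5, -0.65 with NLP8 and -0.47 with NLP9, and that of all genes was 0.02 or 0.03. WRKY40, a transcription factor of stress responses, averaged 92.6 CPM with NLP2, 90.6 CPM with NLP5 and 86.5 CPM with NLP8, against 221 CPM in the control (log2 fold change -1.26, -1.29 and -1.35, and -1.28, -1.4 and -1.29 without the 4 libraries). LOX3, a lipoxygenase of jasmonate synthesis, averaged 451 to 503 CPM with NLP2, NLP5, NLP8 and NLP9, against 1170 CPM in the control (log2 fold changes -1.38 to -1.22). Without the 4 libraries LOX3 was at -1.09 with NLP5 and -1.73 with NLP8. JAZ8, a repressor of jasmonate signalling, averaged 20.7 CPM with NLP9, against 61.9 CPM in the control (log2 fold change -1.58 ± 0.27, edgeR adjusted p = 0.00108). Without the 4 libraries the list had 15, 16, 18 and 16 of 26 genes lower with NLP2, NLP5, NLP8 and NLP9, against 16.2%, 10.6%, 14.3% and 18% of all genes. It then also had 0 to 2 genes higher in each comparison, 13 lower with NLP4 and 4 to 6 lower with NLP1, NLP3, NLP6 and NLP7.

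Of 34 other calmodulin and CML genes tested, 6 fell with NLP2, 6 with NLP5, 7 with NLP8 and 9 with NLP9, while 1 rose with NLP5 and 2 with NLP9. The shares of all genes lower were 7.71%, 7.73%, 8.05% and 11.5%. With 1 library left out the counts lower went down to 2, 2, 2 and 4, and without the 4 libraries they were 11, 10, 10 and 12. CML41, a calmodulin-like gene, averaged 8.79 CPM with NLP2, 5.79 CPM with NLP5, 7.56 CPM with NLP8 and 7.21 CPM with NLP9, against 44.9 CPM in the control. These are log2 fold changes of -2.35, -2.95, -2.56 and -2.64, larger than those of any member in the same comparisons, and they were -2.93 with NLP5 and -2.7 with NLP8 without the 4 libraries. The EF-hand gene AT2G41410 averaged 113 CPM with NLP9, against 386 CPM in the control (log2 fold change -1.78 ± 0.28, edgeR adjusted p = 0.000559). With NLP7 the calmodulin CAM8 rose, to 10.2 CPM against 0.708 CPM in the control (log2 fold change 3.74 ± 0.49, edgeR adjusted p = 0.000151), and CML42 fell to 24.8 CPM, against 49.6 CPM in the control. Of the 16 other XTH genes tested, 0 fell with NLP1 and 1 to 3 with each other NLP, and 1 rose with NLP7. With 1 library left out the count lower went down to 0 for NLP3, NLP4, NLP6 and NLP7, and without the 4 libraries it was 0 to 3. XTH24 fell with every NLP from NLP2 to NLP9, to 32 CPM with NLP9 against 106 CPM in the control at the strongest (log2 fold change -1.73 ± 0.17, edgeR adjusted p = 2.51e-05). Of the 6 CAMTA genes, calmodulin-binding transcription activators, 2 fell with NLP2, 2 with NLP5, 3 with NLP8 and 4 with NLP9, beside the same shares of all genes. With 1 library left out the lowest counts were 2, 0, 1 and 2, and without the 4 libraries they were 2, 2, 3 and 4. SR1 (CAMTA3) averaged 64 CPM with NLP9, against 105 CPM in the control (log2 fold change -0.71 ± 0.15, edgeR adjusted p = 0.00411). The photosynthesis markers summed to 1580 to 2040 CPM with NLP2, NLP5, NLP8 and NLP9, against 1580 CPM in the control, with 2 of 5 called higher for NLP2 and NLP5. The epidermis markers summed to 0.913 to 3.66 CPM, against 4.59 CPM in the control, with 1 of 3 tested called lower for NLP5, NLP8 and NLP9. The part of these markers in the results was not tested.

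**Figure D5:**
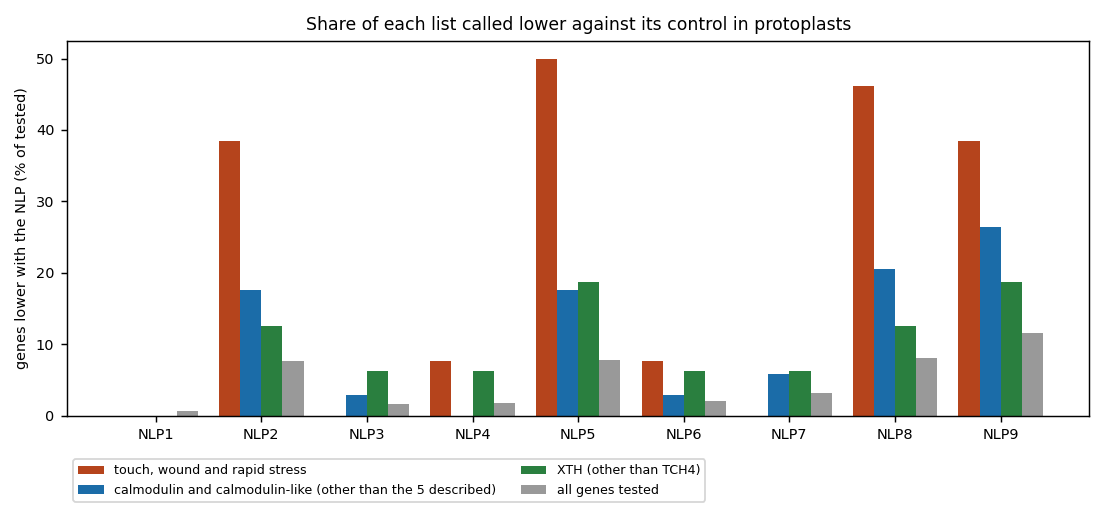
Share of tested genes called lower against the control (y axis, percent of genes tested) for each NLP (x axis) in 3 lists, with all genes tested in grey. The touch, wound and rapid stress list stands highest with NLP2, NLP5, NLP8 and NLP9, at 10 to 13 of 26 genes.

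In seedlings the lists were followed in the same way. With nitrate in wild type, 1 of 26 touch and wound genes was called: CBF2, a cold-response transcription factor, averaged 14.8 CPM with KNO3 and 2.63 CPM with KCl (log2 fold change 2.49 ± 0.46, edgeR adjusted p = 0.00459). Its direction was opposite to that of CML37. The difference in response of CBF2, septuple minus wild type, was -3.24 ± 0.64 (edgeR adjusted p = 0.019). The list's median log2 fold change with nitrate in wild type was -0.39, beside -0.07 for all genes. In KCl, WRKY40 was lower in septuple, at 24.7 CPM against 61.4 CPM in wild type (log2 fold change -1.31 ± 0.29, edgeR adjusted p = 0.0111), the 1 call of 26. In KNO3, 1 of the 26 genes was higher and 2 were lower in septuple, beside 4.05% and 6.78% of all genes. In chl1-5 with KCl, 4 were higher, among them STZ and ATL2, and 1 was lower, CPK28, beside 2.65% and 2.83% of all genes. ERF104, an ethylene response factor, was the highest of these in chl1-5 by fold change, at 84.6 CPM against 21.5 CPM in wild type (log2 fold change 1.98 ± 0.27, edgeR adjusted p = 3e-04).

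The genes most alike to each member were found over the 18 seedling libraries by Pearson's r of log2(CPM + 1) among 13505 genes with a mean of at least 5 CPM. These are descriptions, since the libraries share genotype, treatment and depth. CML37 was most like NUDT4 (r = 0.91, Spearman's rho = 0.89), AT4G23010 (r = 0.86) and JAZ10 (r = 0.83). TCH4 was most like AT2G30230 (r = 0.84), CSLC04 (r = 0.83) and ERF11 (r = 0.82), and TCH3 most like another XTH gene, XTH18 (r = 0.83). TCH2 was most like CMPG1 (r = 0.8), CML39 most like AT2G26680 (r = 0.81) and CML38 most like AT5G52882 (r = 0.89, rho = 0.74). Among the members, r was 0.64 for CML37 with TCH4 and 0.61 for CML37 with TCH3. It was 0.6 for the neighbours CML38 and CML39 (rho = 0.49), and 0.03 for CML38 with TCH4. By r, TCH4 was in place 52 and TCH3 in place 74 among genes like CML37, and CML38 in place 104 for CML39. In the 23 protoplast samples r was 0.8 for CML37 with CML38 and 0.77 for CML38 with TCH3, over sets that differ in their controls. Many genes were more alike there: CML38 was in place 785 for CML37, and TCH3 in place 639 for CML38.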

How the data were processed

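RNA of whole seedlings and mesophyll protoplasts was sequenced. The deposited files hold, per the file headers, read counts per gene as made by the authors, and tables of the authors' comparisons with log2 fold changes and adjusted p-values. TopHat2 2.1.1, HTSeq 0.6.1, featureCounts, FastQC 0.11.5 and the build TAIR10 appear, without role or order, per the submitters' processing notes, and no source says whether strand was used. No row that names no gene entered library sizes or tests: reads in no feature came to 0.84 to 20.99% of assigned reads in protoplasts and 0.82 to 16.7% in seedlings. Of the 37336 loci, 37051 matched the reference annotation TAIR10.1, which gave the gene names, and 285 did not.

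The counts were fitted with edgeR 4.0.16 in R 4.3.3 (TMM scaling, filterByExpr, quasi-likelihood F test, Benjamini-Hochberg adjustment over all genes tested, threshold 0.05), once for 18 seedling libraries (21229 genes) and once for 23 protoplast samples (19311 genes). A called gene passed that threshold. Log2 fold changes are the first group over the second, given with their SE, and CPM values are scaled by TMM unless given as CPM of the library total. The control libraries for NLP1,2,3,5,8,9 were summed, since their counts differed with a chi-square of 1.01 per gene without the NLP genes, against 3.73 or more in the other pairs. Nothing in the labels says that replicates came from separate cultures or plants, so p-values measure only the spread between these samples. Same-numbered samples did not deviate together (correlations of -0.52 to 0.41). DESeq2 1.42.0 and the alternatives of the closing section were run on the same counts. On simulated counts made like the wild type nitrate comparison, 33 of 100 genes changed by 2-fold and 98 of 100 changed by 4-fold were called in the right direction, over 20854 genes. In the same run 8 unchanged genes were called. The changed genes were drawn from those with a mean of at least 5 CPM, which CML39 did not reach in any seedling group.

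The members and lists were chosen with earlier results of these data known. Beside the members and their neighbours and closest relatives, the genes named from the lists were among the 3 highest and 3 lowest log2 fold changes of called genes with a mean of at least 5 CPM in 1 group. Coding sequences were aligned with Biopython 1.88. Members are described by counts beside the share of all genes called.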

Additional observations from a re-analysis of the deposited data

How the results depend on the processing

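With DESeq2 the members called were 2 for NLP4, 2 for NLP5, 1 for septuple against wild type in KCl and 1 in KNO3. For chl1-5 against wild type in KCl there was 1. Of all genes, DESeq2 called 8.19% with NLP4, 13.6% with NLP5, 4.07% for septuple in KCl, 17.1% in KNO3 and 12.5% for chl1-5 in KCl. With RLE size factors in edgeR the members called were 1 for NLP8, where TCH2 was lost. With no filter on low counts they were 3 for NLP2, 1 for NLP3, 2 for NLP4, 3 for NLP5, 2 for NLP6, 2 for NLP7, 3 for NLP9, and 1 each for septuple in KCl, septuple in KNO3 and chl1-5 in KCl against wild type. With the control libraries for NLP1,2,3,5,8,9 kept apart they were 3 for NLP2, 1 for NLP3, 2 for NLP4, 3 for NLP5 and 2 for NLP9, and with a shared replicate block as well 3, 1, 3 and 2 for NLP2, NLP3, NLP5 and NLP9. The wild type nitrate comparison had 0 with only its own groups in the fit and 0 with a replicate block within genotype, where CML37 was at -1.86. Without the 4 libraries that go against their labels they were 2 for NLP1, 4 for NLP2, 2 for NLP3, 2 for NLP4, 4 for NLP5, 2 for NLP7, 3 for NLP8 and 3 for NLP9, and NLP6 kept 1. The cause was not tested. Replicate numbers only name the samples. The shares of all genes called with no filter, with control libraries kept apart or with a replicate block are not given here. Member counts under those settings are therefore not read as particular to the members. TCH3 stayed called with NLP2, NLP5 and NLP8 in every alternative run.

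Leaving out 1 library in turn gave 0 to 1 members called for wild type nitrate, septuple in KCl, septuple in KNO3, chl1-5 in KCl, NLP1, NLP6 and NLP9, 0 to 2 for NLP4, 0 for NLP7 and 1 for NLP8. Some log2 fold changes changed sign, none of them called in the fit of all libraries as labelled. TCH2 with nitrate in septuple was -0.01 with RLE and with DESeq2, the CML39 difference of chl1-5 from wild type -0.63 with the block within genotype, TCH3 with NLP6 -0.02 without the filter and -0.08 without the 4 libraries, and TCH4 with NLP9 -0.01 without the 4. With 1 library left out, the nitrate response in wild type ranged from -1.34 to 0.48 for CML38 and -2.45 to 0.69 for CML39. In septuple it ranged from -0.51 to 0.01 for CML37, 0 to 2.02 for CML39, -0.15 to 0.19 for TCH2, -0.03 to 0.14 for TCH3 and -0.2 to 0.01 for TCH4. In chl1-5 it ranged from -0.49 to 0.02 for CML37, -1.17 to 0.05 for CML39 and -0.11 to 0.39 for TCH2. The difference of chl1-5 from wild type in that response ranged from -0.63 to 1.19 for CML38, -1.21 to 1.93 for CML39 and -0.27 to 0.21 for TCH4. That of septuple from chl1-5 ranged from -0.28 to 0.28 for CML37, -0.38 to 0.11 for TCH2 and -0.14 to 0.03 for TCH3. Septuple against wild type ranged from -2.22 to 0.99 for CML39 and -0.32 to 0.17 for TCH4 in KCl, and from -0.7 to 0.2 for CML38, -0.11 to 0.17 for TCH2 and -0.02 to 0.2 for TCH3 in KNO3. For chl1-5 against wild type it was -1.21 to 1.32 for CML39 and -0.35 to 0.2 for TCH2 in KCl, and -0.54 to 1.22 for CML39 in KNO3. In protoplasts it was -0.02 to 0.29 for CML38, -0.34 to 0.39 for CML39 and -0.21 to 0.15 for TCH2 with NLP1, -1.25 to 0.06 for CML39 with NLP5, -0.34 to 0.19 for CML37, -0.27 to 0.18 for CML38 and -0.08 to 0.09 for TCH3 with NLP6, -0.25 to 0.03 for CML37 with NLP7, and -0.01 to 0.04 for TCH4 with NLP9. Low counts limit CML39, and 2 or 3 libraries a group limit all comparisons.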
